A study of Mus musculus with 12 samples.

Results

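The genes described here encode nuclear subunits of the oxidative phosphorylation machinery, 41 of them, chosen by name and spread over the 5 complexes of that machinery. A member counted as measured when its brightest annotated probe was detected (detection p below 0.05) on 4 or more of the 12 arrays. On that rule 29 of the 41 were measured, among 7341 genes tested. They came from complex I (16 of 17 members), complex III (1 of 6), complex IV (6 of 8) and complex V (6 of 6). No probe was annotated to 11 members, whose expression is not analysed here: the 4 subunits of complex II (Sdha, Sdhb, Sdhc and Sdhd), Uqcrc1, Uqcrc2, Uqcrfs1, Uqcrb and Uqcrq of complex III, and Cox7c and Cox8a of complex IV. The remaining member, Ndufs1, had a probe that was detected on 0 of 12 arrays, whereas the probes of all 29 measured members were detected on 12 of 12, so no member lay near the limit of 4.

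Gene expression was measured with a mouse Illumina BeadChip, 1 array per sample, in whole NOD embryos at embryonic day 10.5; NOD is a mouse strain that develops autoimmune diabetes without further treatment. The 4 control pools each combined equal amounts of RNA from 4 embryos of 4 normal pregnancies, and the 4 diabetic pools were made in the same way from diabetic pregnancies. The 4 NTD embryos were single embryos with a neural tube defect, also from diabetic pregnancies, so pooling and the defect cannot be told apart. Dams counted as diabetic above 250 mg/dL blood glucose and received 5 units of gonadotropin before mating; whether control dams received it is not given in the sources used here. All groups were NOD mice on chow, and the labels name no transgene or deletion. They give neither the litters behind each pool nor whether embryos with defects entered the diabetic pools.

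Oxidative phosphorylation makes most of the ATP of a cell that respires. Complexes I and II pass electrons from NADH and succinate to ubiquinone, complex III passes them on to cytochrome c, and complex IV hands them to oxygen, while the protons pumped on the way drive ATP synthase, complex V. Except for complex II, each complex combines subunits encoded in the nucleus with a few encoded by mitochondrial DNA, and the nuclear genes are expressed in nearly every tissue. Heart muscle is especially rich in mitochondria.

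Each array detected 38.3 to 41.9% of its 32766 probes. Control pools 3 and 4 differed from control pools 1 and 2 in the Y-linked gene Kdm5d, with log2 levels of 4.6 and 4.42 against 8.19 and 8.28, and NTD embryos 3 and 4 read 4.59 and 4.48 against 9.18 and 9.05 in NTD embryos 1 and 2. All diabetic pools read high in it (7.97, 7.23, 8.17 and 8.97), so this signal was not balanced between diabetic and control pools. Without control pools 3 and 4, the number of members called below was again 0 in both comparisons that use controls. That fit had fewer control pools, and the count was 0 with all of them. It therefore cannot show whether the imbalance affected the members. Probes of the measured members lay at the 90.3 to 99.9 percentile of mean signal, so all were bright. Levels are log2 intensities after background correction and quantile normalization, and a difference is the mean of the first group minus the mean of the second on that scale. Because each array was scaled to the same distribution, a difference shows a change relative to the other genes of the array. In whole embryos, fewer cells of a type and less RNA per cell cannot be told apart.

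Differences between group means of the measured subunits were at most 1.18-fold, and 0 of 29 passed the test in any comparison. Against control pools, the diabetic pools differed by at most 1.18-fold (Ndufb9) and the NTD embryos by at most 1.13-fold (Ndufa4). Between NTD embryos and diabetic pools the largest difference among the members was 1.16-fold, again for Ndufa4. The test was limma's moderated fit over all 7341 genes with Benjamini-Hochberg adjustment and a threshold of 0.05. It called 151 genes between diabetic and control pools (2.06% of all genes), 7 between NTD embryos and control pools (0.0954%) and 0 between NTD embryos and diabetic pools (0%). At shares this low, 0 of 29 does not set the members apart from all genes. The members' median difference without regard to sign was 0.04, 0.05 and 0.06 in these comparisons. Over all genes, dimmer ones included, it was 0.08, 0.08 and 0.07.

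At an unadjusted p under 0.05, limma gave 1 member between diabetic and control pools, Atp5d, against 14.4% of all genes. It gave 0 members in either comparison with NTD embryos, against 10.2% of all genes for NTD embryos and control pools and 3.05% for NTD embryos and diabetic pools. Samples of 2 groups did not overlap for 1 member in each comparison. That member was Ndufs3, higher in diabetic than in control pools (9.34% of all genes did not overlap, either direction) and higher in NTD embryos than in control pools (6.38%). For NTD embryos against diabetic pools it was Ndufb3, higher in NTD embryos (1.95%). A count of 1 in 29 was a smaller share than that of all genes in both comparisons with control pools and a larger one, by this single gene, in the third. P-values here measure the spread between these samples.

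The 95% intervals show how large a difference could have gone unnoticed. In both comparisons with control pools, the intervals of all 29 members lay within 1.5-fold of no difference, as did 96.9% of all genes for diabetic pools and 92.8% for NTD embryos. Between NTD embryos and diabetic pools 28 of 29 did, against 94.7% of all genes. The exception was Ndufa4, with an interval of -0.17 to 0.59. The lowest limit against control pools was that of Ndufb9 in diabetic pools (-0.53) and the highest that of Ndufa4 in NTD embryos (0.54). Differences under 1.5-fold are therefore not excluded for single members.

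**Figure D1:**
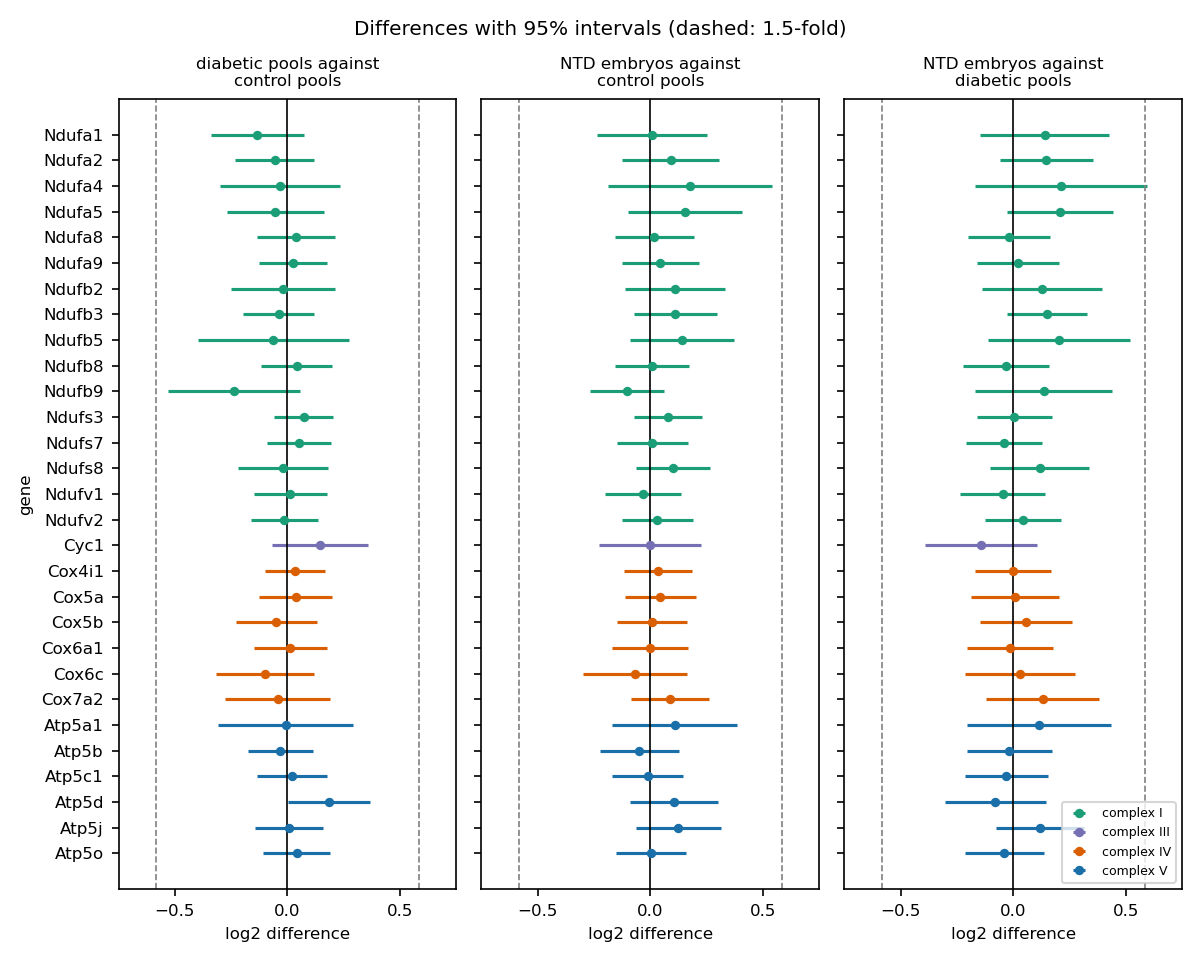
Log2 difference of each of 29 measured subunit genes (points, coloured by complex) with its 95% interval (bars) in 3 comparisons of 4 samples a group; dashed lines mark 1.5-fold. Between diabetic and control pools the interval of Atp5d lies above 0, every other interval in the 3 panels includes 0, and the interval of Ndufa4 between NTD embryos and diabetic pools passes the upper line at 0.59.

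Signs of the differences were nearly balanced in the diabetic pools and were more often above 0 in the NTD embryos, where median scaling lowered the members together with all genes. Against control pools, 14 of 29 members were above 0 in diabetic pools (48.3%, against 53.5% of all genes) with a median of -0.0066, and 6 of 29 after median scaling, where 31.0% of all genes were above 0. In NTD embryos 23 of 29 were above 0 (79.3%, against 52.1% of all genes) with a median of 0.03, and 10 of 29 after median scaling (20.1% of all genes). Median scaling moved the median of all genes to -0.06 in the first comparison and to -0.10 in the second, and the members' medians to -0.05 and -0.01. For NTD embryos against diabetic pools 18 of 29 members were above 0 under both scalings (48.2% of all genes, and 32.5% after median scaling).

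Complex I, NADH:ubiquinone oxidoreductase, takes electrons from NADH through a core of subunits that carry flavin and iron-sulfur clusters, surrounded by accessory subunits that hold and stabilise it. The 5 measured core subunits were Ndufv1, which carries the flavin, and Ndufv2, Ndufs3, Ndufs7 and Ndufs8. Their differences ran from -0.02 to 0.07 in diabetic pools against control pools and from -0.03 to 0.10 in NTD embryos against control pools.

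Ndufs3 encodes a core subunit of the arm that faces the matrix, and it was the steadiest member, with a within-group SD of 0.04. Its log2 levels were 10.94, 10.95, 10.99 and 10.97 in control pools, 11.06, 11.01, 11.01 and 11.07 in diabetic pools and 11.13, 11.00, 11.02 and 11.02 in NTD embryos. All 8 samples from diabetic pregnancies lay above the 4 control pools, with little distance between the nearest samples. In diabetic pools the difference was 0.07 ± 0.06 (± SE, 4 samples per group; limma adjusted p = 0.641), and in NTD embryos it was 0.08 ± 0.07 (adjusted p = 0.771). Neither passed. After median scaling, which also lowered the median over all genes, the differences were 0.0038 and 0.0018.

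The 11 accessory subunits of complex I, as listed, include Ndufa4, the member with the largest difference of NTD embryos from control pools. Of these 11, 3 were above 0 in diabetic pools against control pools and 10 in NTD embryos against control pools, or 1 and 5 after median scaling. Of all genes, 53.5% and 52.1% were above 0 in these comparisons, and 31.0% and 20.1% after median scaling. The accessory subunits' medians were -0.04 and 0.09, and 0 of 11 passed. Ndufb9 encodes an accessory subunit of the membrane arm. Its levels were 9.75, 9.82, 9.59 and 9.78 in control pools, 9.12, 9.43, 9.54 and 9.89 in diabetic pools and 9.64, 9.61, 9.65 and 9.62 in NTD embryos. Diabetic pools 1, 2 and 3 lay below all control pools, while diabetic pool 4 was the highest of all 12 samples, and the NTD embryos lay close together at the lower end of the control range. The difference of diabetic pools from control pools was -0.24 ± 0.13 (limma adjusted p = 0.454); without diabetic pool 4 it was -0.37 (adjusted p = 0.0953), still short of the threshold. In NTD embryos it was -0.10 ± 0.07 (adjusted p = 0.697).

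Ndufa5, another accessory subunit, read 10.89, 11.01, 10.72 and 10.60 in control pools, 10.59, 10.74, 10.84 and 10.86 in diabetic pools and 11.17, 10.94, 10.99 and 10.75 in NTD embryos. The NTD embryos were the highest group on average, and each group overlapped both others. Between NTD embryos and diabetic pools the difference was 0.21 ± 0.11 (limma adjusted p = 0.996). For Ndufb3, an accessory subunit of the membrane arm, control pools gave 10.32, 10.08, 10.14 and 10.12, diabetic pools 10.07, 10.15, 10.15 and 10.13 and NTD embryos 10.34, 10.37, 10.22 and 10.18. The NTD embryos lay above all diabetic pools, but control pool 1 was higher than NTD embryos 3 and 4. The difference between NTD embryos and diabetic pools was 0.15 ± 0.08 (adjusted p = 0.996).

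Ndufa4 is listed with complex I by its name, although its protein is now counted as a subunit of complex IV. The counts here keep it among the accessory subunits of complex I and leave it out of complex IV. Ndufa4 varied most of all members, with a within-group SD of 0.27 and a 1.92-fold range over the 12 samples. Control pools read 12.46, 12.43, 12.42 and 12.06, diabetic pools 12.30, 11.99, 12.49 and 12.46 and NTD embryos 12.94, 12.34, 12.69 and 12.13. NTD embryo 1 was highest and diabetic pool 2 lowest, and the groups overlapped throughout. The difference of NTD embryos was 0.18 ± 0.17 from control pools and 0.21 ± 0.17 from diabetic pools (limma adjusted p = 0.788 and 0.996).

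Complex III was represented by Cyc1, cytochrome c1, which hands electrons to cytochrome c. Its levels were 11.12, 11.08, 11.18 and 11.38 in control pools, 11.31, 11.58, 11.26 and 11.19 in diabetic pools and 10.98, 11.21, 11.18 and 11.38 in NTD embryos. Diabetic pool 2 was the highest sample and NTD embryo 1 the lowest, and control pool 4 lay above 3 of the 4 diabetic pools. The difference of diabetic pools from control pools was 0.14 ± 0.10 (limma adjusted p = 0.546), that of NTD embryos from control pools 0.0004 ± 0.10 (adjusted p = 0.999) and that of NTD embryos from diabetic pools -0.14 ± 0.11. With 1 of 6 members measured, the complex as a whole was not assessed.

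Complex IV, cytochrome c oxidase, had 6 measured members, and 0 of 6 passed. Against control pools their median was -0.02 in diabetic pools and 0.02 in NTD embryos. The latter was -0.01 after median scaling, which lowered all genes too. Cox4i1, the nuclear subunit that is present in most tissues, was nearly constant, with a within-group SD of 0.05 and levels from 12.96 to 13.10 over all samples. Cox7a2, the isoform of subunit 7a found in most tissues, read 10.53, 10.54, 10.34 and 10.48 in control pools, 10.25, 10.31, 10.40 and 10.76 in diabetic pools and 10.50, 10.64, 10.48 and 10.61 in NTD embryos. Diabetic pool 4 was again the highest sample and diabetic pool 1 the lowest. The difference between NTD embryos and diabetic pools was 0.13 ± 0.11 (limma adjusted p = 0.996).

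Cox6c, a small subunit of the membrane part of the enzyme, had levels of 13.18, 13.11, 12.82 and 13.05 in control pools, 12.80, 12.92, 12.89 and 13.17 in diabetic pools and 13.09, 13.11, 12.92 and 12.77 in NTD embryos. Each group spanned most of the same range, and the difference of diabetic from control pools was -0.10 ± 0.10 (limma adjusted p = 0.723). Cox5a, a subunit on the matrix side, gave 13.16, 13.10, 13.07 and 13.07 in control pools, 13.17, 12.97, 13.14 and 13.26 in diabetic pools and 13.20, 13.22, 13.08 and 13.08 in NTD embryos. Its highest and lowest samples were both diabetic pools, and NTD embryos differed from control pools by 0.05 ± 0.07 (adjusted p = 0.908). The other measured members, Cox5b and Cox6a1, differed from control pools by -0.05 to 0.01 in either group on their main probes. Further probes gave -0.04 (Cox5b) and 0.13 (Cox6a1) in diabetic pools, and 0.12 and 0.11 in NTD embryos.

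Complex V, ATP synthase, turns the proton gradient into ATP in a catalytic head, F1, joined to the membrane part by a rotating central stalk and a fixed peripheral stalk. All 6 listed members were measured: the F1 subunits Atp5a1 (alpha), Atp5b (beta), Atp5c1 (gamma) and Atp5d (delta), and the peripheral stalk subunits Atp5j and Atp5o. The 6 genes had medians of 0.01 in diabetic pools and 0.05 in NTD embryos against control pools. Atp5b, the catalytic subunit, differed by -0.03 ± 0.07 in diabetic pools and -0.05 ± 0.08 in NTD embryos.

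Atp5d, part of the central stalk, was the member nearest to the threshold. Its levels were 11.13, 11.23, 11.14 and 11.30 in control pools, 11.43, 11.56, 11.31 and 11.24 in diabetic pools and 11.14, 11.36, 11.25 and 11.46 in NTD embryos. Diabetic pools 1, 2 and 3 lay above all control pools, and diabetic pool 4 lay below control pool 4. The difference was 0.18 ± 0.08, or 1.14-fold, with a 95% interval of 0.00 to 0.37 before adjustment and a limma adjusted p of 0.339, so it did not pass. It kept its sign under 19 of 19 alternatives, at 0.11 to 0.23, with an adjusted p of 0.166 at the smallest. In NTD embryos against control pools the difference was 0.11 ± 0.09 (adjusted p = 0.754).

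Atp5j, coupling factor 6 of the peripheral stalk, had levels of 11.96, 11.86, 11.79 and 11.77 in control pools, 11.82, 11.78, 11.87 and 11.93 in diabetic pools and 12.10, 11.98, 12.00 and 11.79 in NTD embryos. NTD embryos 1, 2 and 3 lay above every pool and NTD embryo 4 among the lowest samples, for a difference from control pools of 0.12 ± 0.09 (limma adjusted p = 0.679). Atp5a1 read 12.05, 12.19, 11.91 and 12.38 in control pools, 11.85, 12.02, 12.15 and 12.50 in diabetic pools and 12.02, 12.29, 12.17 and 12.49 in NTD embryos. Samples of all groups were spread over more than 1.5-fold in it (1.57-fold over the 12 samples), and NTD embryos differed from control pools by 0.11 ± 0.13 (adjusted p = 0.851).

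**Figure D2:**
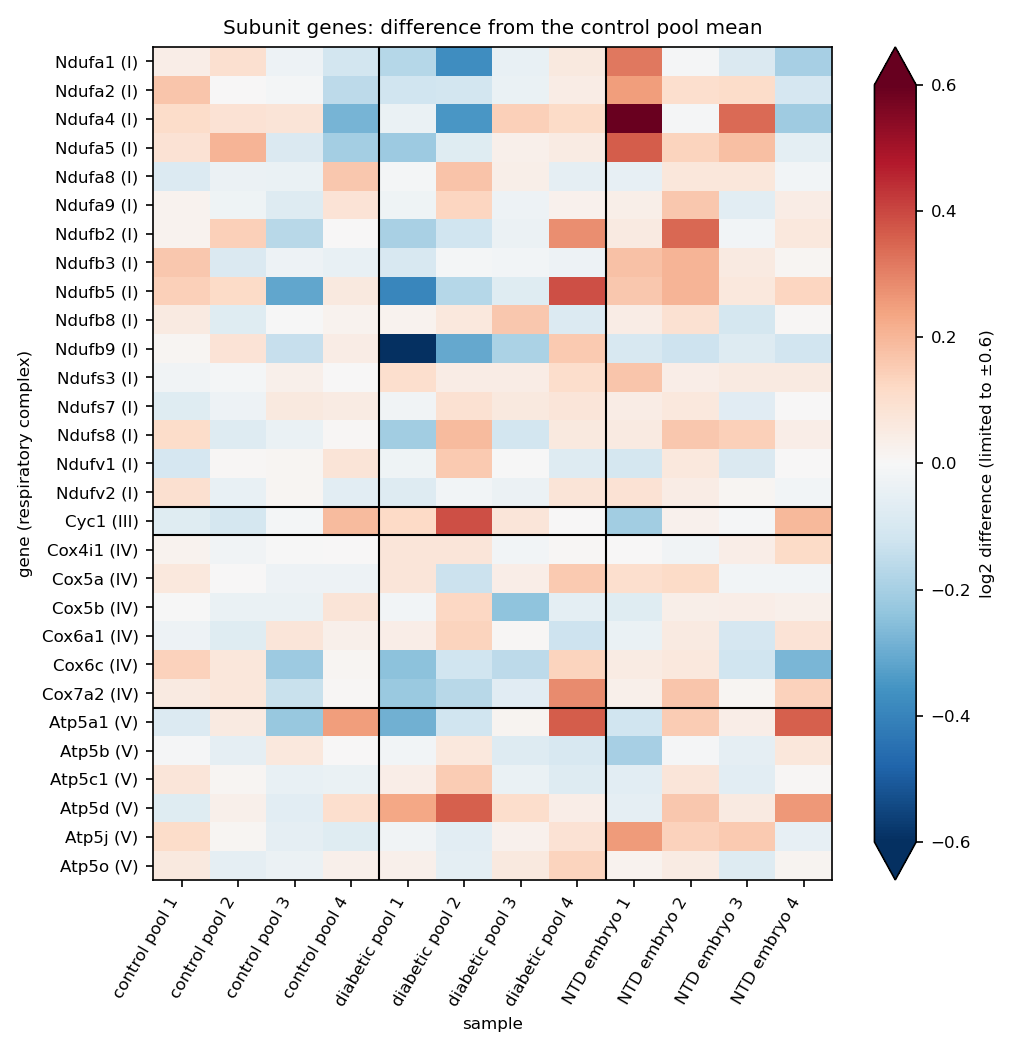
Colour shows the log2 difference of each measured subunit gene (rows, with its complex) from the mean of the 4 control pools in each of 12 samples (columns), limited to ±0.6; black lines part groups and complexes. The rows of Ndufb5, Ndufb9, Cox7a2 and Atp5a1 are blue in diabetic pool 1 and red in diabetic pool 4, and those of Ndufa1, Ndufa4 and Ndufa5 are red in NTD embryo 1.

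Members differed in how much they varied between samples of a group. The median SD within a group was 0.08 in control pools, 0.11 in diabetic pools and 0.08 in NTD embryos over the members, against 0.10, 0.13 and 0.16 over all genes. SDs of pools are spreads between averages of 4 embryos, and those of NTD embryos are spreads between single embryos. The members were all bright, whereas all genes include dim ones, and genes of like brightness were not compared. Core subunits of complex I varied less than accessory ones (Ndufa4 included) in each group. Median SDs were 0.07 against 0.11 in control pools, 0.07 against 0.12 in diabetic pools and 0.06 against 0.09 in NTD embryos. These values are given without a test. Diabetic pool 1 was the lowest of the 12 samples for 9 members. Diabetic pool 2 was the highest for 9, and diabetic pool 4 and NTD embryo 1 for 6 each.

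The same samples were extreme in several of the most variable members, which were picked out after their values were seen. Ndufb5, Ndufb9, Cox7a2 and Atp5a1, from 3 complexes, were each lowest in diabetic pool 1 and highest in diabetic pool 4. For Ndufb5, an accessory subunit of the membrane arm, these samples read 10.18 and 10.96, a 1.72-fold range, and for Ndufb9 9.12 and 9.89, a 1.70-fold range. Ndufa1 and Ndufa4 were both highest in NTD embryo 1 and lowest in diabetic pool 2, whereas Cyc1 was highest in diabetic pool 2 and lowest in NTD embryo 1. Ndufa1, which encodes an accessory subunit of the membrane arm, read 11.88, 11.94, 11.81 and 11.73 in control pools, 11.67, 11.46, 11.79 and 11.90 in diabetic pools and 12.16, 11.83, 11.75 and 11.64 in NTD embryos. A range over the 12 samples is always at least as wide as any difference between group means, so the 2 are not set against each other here.

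**Figure D3:**
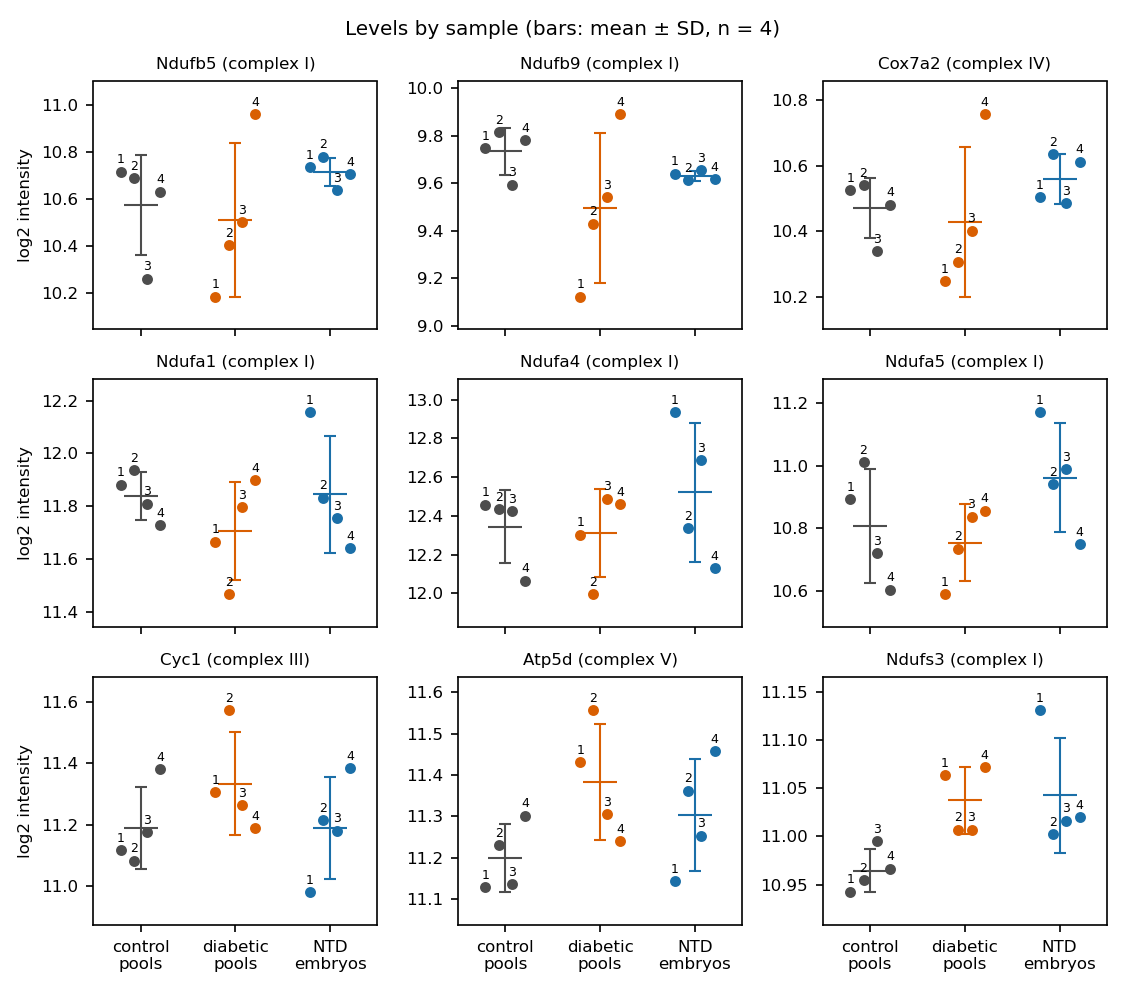
Log2 intensity of 9 subunit genes in each sample (points, numbered by replicate) with the mean and SD of each group (n = 4); each panel has its own axis. Diabetic pools 1 and 4 are the lowest and highest samples for Ndufb5, Ndufb9 and Cox7a2, and of the 9 genes Ndufs3 alone has all control pools below all other samples.

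Further probes gave a check on the probe chosen for each gene. For 8 members, 9 more probes passed the detection filter. Their differences had the same sign as the main probe in 8 of 9 cases between diabetic and control pools, in 6 of 9 between NTD embryos and control pools and in 5 of 9 between NTD embryos and diabetic pools. The widest disagreement was in Atp5j, whose further probes differed by 0.08 and 0.38 between NTD embryos and control pools, against 0.12 for the main probe.

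Related lists were the other nuclear subunits, subunits encoded by mitochondrial DNA, tissue-restricted isoforms, assembly factors, genes of the tricarboxylic acid cycle and regulators. In these 6 lists limma called 0 genes in any comparison. Of 38 other nuclear subunit genes, 32 were measured. In diabetic pools against control pools 14 of these were above 0, with a median of -0.0014, and limma gave 0 at an unadjusted p under 0.05. In NTD embryos against control pools 22 were above 0 (15 after median scaling, which lowered all genes too) with a median of 0.06. At an unadjusted p under 0.05 in limma, 3 were higher and 1 lower, against 10.2% of all genes in either direction. Ndufv3, an accessory subunit of the flavin-bearing part of complex I, read 11.71, 11.62, 11.73 and 11.77 in control pools, 11.97, 11.90, 11.74 and 11.81 in diabetic pools and 12.00, 11.97, 12.08 and 11.82 in NTD embryos. All NTD embryos lay above all control pools in Ndufv3, as they did in 3 of these 32 genes (6.38% of all genes did not overlap, either direction). Its difference was 0.26 ± 0.08 (limma adjusted p = 0.266), and for diabetic pools it was 0.15 ± 0.07 (adjusted p = 0.388). Ndufa3 differed by -0.10 ± 0.06 in diabetic pools (adjusted p = 0.534).

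Subunits encoded by mitochondrial DNA form much of the proton-pumping membrane arm of complex I, carry redox centres of complexes III and IV and form part of the proton channel of complex V. Of 13 such genes, 8 were measured. CYTB, COX2, ND1 and ATP6 differed from control pools by -0.05 to 0.07 in either group. Between diabetic and control pools ND4 differed by -0.13 ± 0.08 (limma adjusted p = 0.508). ND6, the gene on the other strand of the mitochondrial genome, read 7.92, 7.09, 6.96 and 6.04 in control pools, 7.68, 7.30, 7.78 and 7.91 in diabetic pools and 8.04, 7.63, 6.99 and 7.43 in NTD embryos. Control pool 1 was above every diabetic pool, and control pool 4 was the lowest sample. The difference between diabetic and control pools was 0.67 ± 0.30 (adjusted p = 0.343). ND5 differed by -0.09 ± 0.13 in diabetic pools and 0.24 ± 0.18 in NTD embryos. ND4L, named for its spread, read 10.38, 10.88, 10.20 and 10.90 in control pools, 9.45, 9.78, 10.08 and 11.22 in diabetic pools and 10.10, 10.50, 9.46 and 10.45 in NTD embryos. As in Ndufb5, diabetic pool 1 was the lowest sample and diabetic pool 4 the highest. The difference of diabetic from control pools was -0.46 ± 0.31 (adjusted p = 0.555).

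Several subunits of complex IV have isoforms restricted to heart and skeletal muscle. The isoform list also holds other tissue-restricted and hypoxia-responsive isoforms, and 4 of its 9 genes were measured. Cox6a2 and Cox7a1, the muscle isoforms of subunits 6a and 7a, were singled out after their values in NTD embryos were seen. Cox6a2 read 8.07, 8.06, 7.92 and 7.79 in control pools, 7.80, 7.85, 7.84 and 7.99 in diabetic pools and 8.23, 8.10, 8.55 and 8.25 in NTD embryos. Cox7a1 read 7.46, 7.46, 7.37 and 7.21 in control pools, 7.41, 7.36, 7.35 and 7.31 in diabetic pools and 7.69, 7.59, 7.82 and 7.60 in NTD embryos. All NTD embryos lay above all 8 pools in both genes, and 2 of 4 isoform genes had an unadjusted p under 0.05 in limma. Against control pools, 10.2% of all genes had such a p in NTD embryos and 6.38% did not overlap. Against control pools the differences were 0.32 ± 0.11 for Cox6a2 and 0.30 ± 0.09 for Cox7a1, with limma adjusted p of 0.324 and 0.256, and neither passed. In diabetic pools against control pools they were -0.09 ± 0.08 and -0.02 ± 0.07. The widely expressed counterparts, Cox6a1 and Cox7a2, differed from control pools by -0.0012 and 0.09 in NTD embryos. A further probe of Cox6a1 gave 0.11 in the same comparison. The other measured isoforms, Cox6b2 and Cox8b, differed by 0.19 ± 0.17 and 0.04 ± 0.17 there, with overlapping groups.

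Markers of heart muscle, a tissue rich in mitochondria, stood beside these values. Of 12 measured cardiac markers, 12 were above 0 in NTD embryos against control pools, with a median of 0.27 (0.17 after median scaling), and 8 were higher at an unadjusted p under 0.05 in limma (5.5% of all genes), but 0 passed after adjustment. Their summed level, in linear units of normalized intensity, was 23188 to 24535 in control pools, 22489 to 25534 in diabetic pools and 25403 to 33773 in NTD embryos. The embryos were not alike in cardiac markers: relative to control means, NTD embryos 1 to 4 had medians of 0.09, 0.24, 0.56 and 0.31. NTD embryo 1 lay above all control pools in 5 of the 12 markers and below all control pools in 2. NTD embryos 2, 3 and 4 lay above all control pools in 10, 12 and 11 markers, and below all in 0. Erythroid markers (9 measured) and neuron markers (9 measured) were all below 0 on average in the same comparison, under median scaling too, with medians of -0.35 and -0.33. Single embryos differed. Median differences from the control mean in NTD embryos 1 to 4 were -0.24, 0.05, -0.81 and -0.53 for erythroid markers. For neuron markers they were -0.17, -0.39, -0.83 and 0.17, and NTD embryo 4 lay above all control pools in 6 of 9. Their sums ran from 86451 to 108735 and from 3026 to 4512 in NTD embryos, against 104604 to 108606 and 4504 to 4781 in control pools. Of the macrophage markers, 6 of 6 were below 0 on average, but the embryos differed: NTD embryo 2 lay above all control pools in 6 of 6 (sum 515), and the other NTD embryos had sums of 260 to 280, against 357 to 408 in control pools and 318 to 362 in diabetic pools. In diabetic pools against control pools, limma called 2 of 9 neuron, 1 of 6 macrophage and 1 of 9 erythroid markers lower, against 1.21% of all genes. Called or not, 8 of 9, 4 of 6 and 7 of 9 were below 0, with 53.5% of all genes above 0. The neuron median was -0.21 there, and the cardiac median 0.07 (-0.0008 after median scaling, which lowered all genes too). The part of these markers in the subunit values was not tested. Placental and endodermal marker lists, with 3 and 4 measured genes, had medians from -0.07 to 0.01 over the 3 comparisons, but single NTD embryos stood far apart. Endodermal sums were 1073 in NTD embryo 2 and 371 in NTD embryo 4, against 566 to 837 in control pools, and placental sums ran from 317 to 799 in NTD embryos, against 593 to 714. In diabetic pools the placental sums, 529 to 578, lay below those of all control pools, with 2 of 3 genes below 0. Endodermal sums were 523 to 785 there, with 4 of 4 genes below 0.

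**Figure D4:**
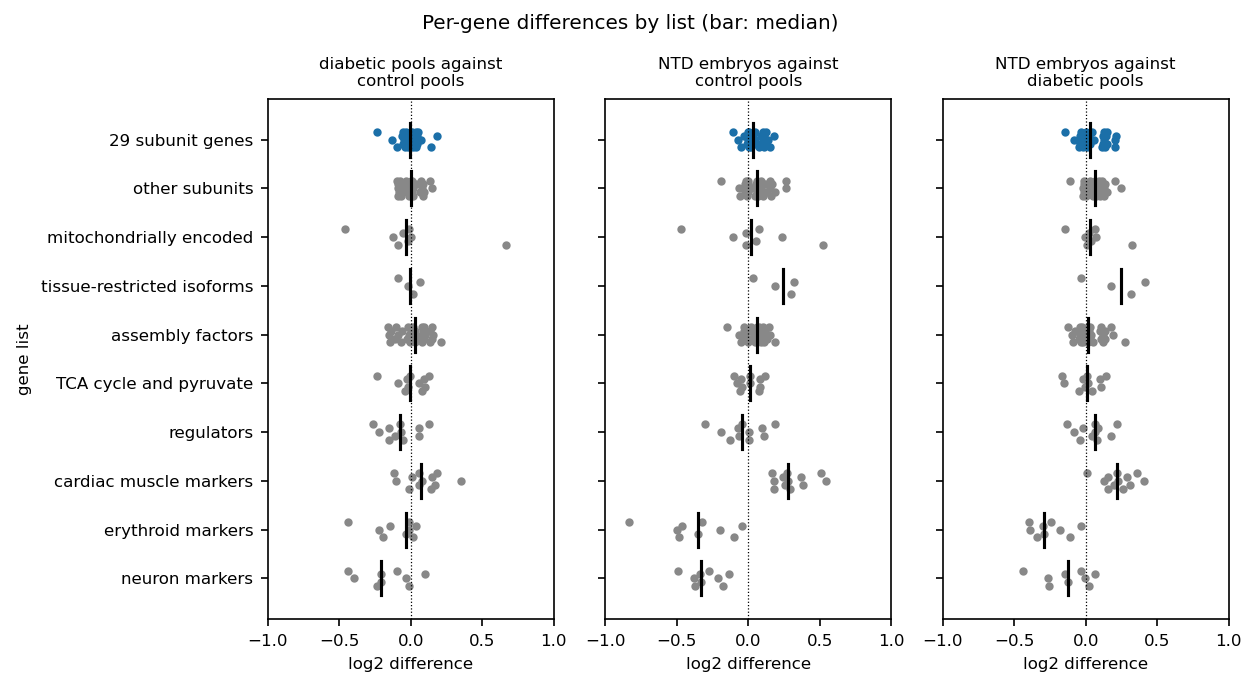
Log2 difference of each measured gene (points) by list, with the median of the list (bar), in 3 comparisons. The 29 subunit genes have medians of -0.0066, 0.03 and 0.03, while the cardiac marker list lies at 0.27 in NTD embryos against control pools and the erythroid and neuron lists at -0.35 and -0.33.

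Nuclear genes of oxidative phosphorylation are known to be controlled by the factors NRF-1 and GABP, an ETS family factor, and by YY1. Gabpa, which encodes the DNA-binding subunit of GABP, read 7.72, 7.78, 7.59 and 7.76 in control pools, 7.44, 7.33, 7.62 and 7.58 in diabetic pools and 7.32, 7.46, 7.34 and 7.5 in NTD embryos. All NTD embryos were below all control pools (6.38% of all genes did not overlap, either direction), and so were diabetic pools 1, 2 and 4. The groups overlapped in Nrf1, which encodes NRF-1, and in Gabpb1, which encodes a partner subunit of GABP. Nrf1 read 9.26 to 9.41 in control pools, 9.30 to 9.51 in diabetic pools and 9.09 to 9.48 in NTD embryos. Gabpb1 read 8.51 to 8.66, 8.50 to 8.56 and 8.48 to 8.72. Yy1 was not measured. The differences were -0.31 ± 0.08 in NTD embryos and -0.22 ± 0.08 in diabetic pools against control pools (limma adjusted p = 0.19 and 0.231), and neither passed. Of 11 measured regulators, 3 were above 0 in diabetic pools and 5 in NTD embryos, with medians of -0.08 and -0.04. After median scaling, which lowered all genes too, the medians were -0.15 and -0.16. Mterf1a, a mitochondrial transcription termination factor, differed by -0.26 ± 0.09 in diabetic pools (adjusted p = 0.213).

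Letters that these factors recognise were counted on both strands in windows from 250 bases before to 50 after each gene start in RefSeq (GRCm38.p6). Windows were found for 30 of 41 members, 34 windows in all, including members without a measured probe such as Sdhb, Sdhd, Uqcrc1 and Cox8a, among 32851 windows of all genes. The NRF-1 letters GCGCATGCG were in 8.82% of member windows against 1.75% of all windows, the ETS letters CCGGAAG in 20.6% against 8.86%, and the YY1 letters AAGATGGCG in 8.82% against 1.40%. The letters TATAAA were in 2.94% against 13.6%. At least one of the first 3 was in 32.4% of member windows against 11.4%. Member windows had a median of 59.2% G and C, against 52.7% for all windows. The ETS letters end as the YY1 letters begin, so both can share bases, and the NRF-1 letters can match both strands at 1 site, as in Cox6a1. A match describes these letters only.

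The 250 bases before the start are printed for 4 measured members that hold such letters, to show where they lie, with matches in capitals. Ndufs3, the member whose control pools lay below all other samples, has ETS letters at -27 to -21 from its start (chr2:90904722-90904971, minus strand). Cox6a1 has NRF-1 letters at -162 to -154 and, on the other strand, -161 to -153, and ETS letters at -16 to -10 (chr5:115348959-115349208, minus strand). Ndufa8, an accessory subunit of complex I, has NRF-1 letters at -9 to -1 (chr2:36049339-36049588, minus strand). Atp5j, in the second of its 2 windows, has YY1 letters at -88 to -80 and ETS letters at -61 to -55 (chr16:84834977-84835226, minus strand).
Ndufs3: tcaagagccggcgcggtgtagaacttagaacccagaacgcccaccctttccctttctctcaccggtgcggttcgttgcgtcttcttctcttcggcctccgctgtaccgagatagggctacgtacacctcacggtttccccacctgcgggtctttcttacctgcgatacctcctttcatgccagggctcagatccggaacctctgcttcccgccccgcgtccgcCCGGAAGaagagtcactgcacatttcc
Cox6a1: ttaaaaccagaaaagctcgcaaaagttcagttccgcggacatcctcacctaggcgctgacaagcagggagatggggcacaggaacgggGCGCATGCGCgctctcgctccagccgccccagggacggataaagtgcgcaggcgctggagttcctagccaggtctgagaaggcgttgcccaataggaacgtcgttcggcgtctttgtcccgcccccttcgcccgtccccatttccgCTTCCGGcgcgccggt
Ndufa8: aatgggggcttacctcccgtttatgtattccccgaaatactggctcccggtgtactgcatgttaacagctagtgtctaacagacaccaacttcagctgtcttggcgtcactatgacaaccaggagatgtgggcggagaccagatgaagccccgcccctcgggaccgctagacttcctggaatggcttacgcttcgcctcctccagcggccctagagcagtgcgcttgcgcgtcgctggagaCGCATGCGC
Atp5j: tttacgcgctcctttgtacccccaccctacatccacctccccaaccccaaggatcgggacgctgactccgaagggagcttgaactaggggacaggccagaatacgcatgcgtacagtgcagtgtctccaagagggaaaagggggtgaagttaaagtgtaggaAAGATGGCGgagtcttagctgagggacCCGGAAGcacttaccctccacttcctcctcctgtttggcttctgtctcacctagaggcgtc
In NTD embryos against control pools, these 4 members differed by 0.08 ± 0.07 (Ndufs3), -0.0012 ± 0.08 (Cox6a1), 0.02 ± 0.08 (Ndufa8) and 0.12 ± 0.09 (Atp5j), and none passed. Gabpa differed by -0.31 ± 0.08 and did not pass either. Ndufa8 holds no ETS letters in its window, and a relation between Gabpa and the subunit genes was not tested.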

How the data were processed

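Biotin-labelled RNA was made from 200 ng of total RNA of whole embryos, per the labels' protocols, and GenomeStudio is named in the submitters' processing notes. Average intensities per probe, with bead numbers, were deposited without normalization per the file headers, together with the authors' detection p-values. The value table deposited by the authors holds intensities, some below 0, with column medians of 8.44 to 8.70 and a rank correlation of 1 with the raw intensities on 12 of 12 arrays; its background step and scaling are not given in the sources used here.

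Intensities were corrected, given an offset of 16, quantile-normalized and put on the log2 scale with neqc of limma 3.58.1 in R 4.3.3. Probes detected (p below 0.05) on 4 or more of the 12 arrays and annotated to 1 symbol were kept, and the brightest stood for its gene (7341 genes). Of 32766 probes, 23340 had 1 symbol, 13 had several and 9413 were not listed. Symbols were updated through Entrez identifiers. Each comparison was fitted with lmFit and eBayes on its 8 arrays with no covariate; tests were two-sided and adjusted by Benjamini and Hochberg's method over all genes, and the fit was tested on simulated data. Array numbers (4 per group) limit precision, and median beads per probe were 44 to 45.

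Members and lists were chosen with earlier results of these data known. Values in every sample are given for the 3 members of each complex with the smallest p over the comparisons, plus Ndufs3, Ndufa4 and Ndufa1, chosen after their values were seen. From each related list, the 2 genes with the smallest p between diabetic and control pools are named; further names were chosen after their values were seen. Alternatives covered background correction, scaling, offset, the deposited value table, filters, probe choice, pooled fits, array weights, replicate blocks and left-out samples. Of 19 listed carrier and channel genes, 0 were measured.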

Additional observations from a re-analysis of the deposited data

Results flagged for a closer look

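In 99 groups of 4 values that were examined (members and medians, by group), 5 held a sample that stood apart by more than Dixon's critical value; chance alone flags about 1 in 20 groups. Ndufa4 in control pool 4 was 12.06, against 12.42 to 12.46 in the other control pools. Ndufs3 in NTD embryo 1 was 11.13, against 11.00 to 11.02 in the other NTD embryos. Cox5b in NTD embryo 1 was 13.05, against 13.15 to 13.16 in the others. The median difference of the 29 members from the control mean was 0.0572 in diabetic pool 4, against -0.03 to -0.01 in the other diabetic pools. The median over complex V was -0.0502 in control pool 3, against 0.01 to 0.02 in the other control pools. Without diabetic pool 4 or control pool 3, the number of members called in either comparison they enter was 0, as it was with them.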

How the results depend on the processing

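The count of subunit genes called was 0 in each comparison and under all alternatives run, 19 for diabetic against control pools, 19 for NTD embryos against control pools and 18 for NTD embryos against diabetic pools. For the 12 members followed singly, 0 of 672 values passed, with a smallest adjusted p of 0.0953 (Ndufb9, diabetic against control pools, without diabetic pool 4). Signs were less stable: Atp5a1 and Atp5j each changed sign under 6 of 19 alternatives between diabetic and control pools, and so did Cyc1 between NTD embryos and control pools. With median scaling the members' median was -0.05 for diabetic and -0.01 for NTD samples against control pools, with all genes at -0.06 and -0.10; with array weights it was 0.06 for NTD embryos against diabetic pools.

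The number of all genes called moved more. Between diabetic and control pools it was 151, with 96 from the authors' value table, 36 with all 12 arrays in 1 fit, 42 without both control pools 3 and 4, and 58 to 174 when each sample was left out in turn. Median scaling gave 23 higher and 141 lower, against 62 and 89. Between NTD embryos and control pools it was 7, with 19 under median scaling, 1 from the authors' value table, 2 without a detection filter, 4 with detection on all 12 arrays, 31 in 1 fit, 41 with array weights, 1 without both control pools 3 and 4, and 1 to 49 when each sample was left out. The cause of these shifts was not tested. Between NTD embryos and diabetic pools it was 0 throughout. With the replicate number as a block, 57, 1 and 0 genes were called in the 3 comparisons, and 0 members. The labels tie no numbers across groups. Deviations of same-numbered samples correlated at -0.27 to 0.08 between diabetic and control pools and at -0.20 to 0.27 between NTD embryos and diabetic pools. Between NTD embryos and control pools they correlated at 0.20, 0.0092, 0.14 and 0.30, and NTD embryos 1, 3 and 4, but not 2, correlated best with the control pool of their own number. The numbers were therefore not taken as pairs. A block for slides was not run, because the file headers name none. Array number and pooling limit these data: differences under 1.5-fold are not excluded for single members, and 12 of 41 members were not measured.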

Other observations

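Other mitochondrial genes gave few values apart from the rest. Of 33 measured assembly factors of the respiratory complexes, 19 were above 0 in diabetic pools against control pools (10 after median scaling) and 25 in NTD embryos against control pools (7 after median scaling, where 31.0% and 20.1% of all genes were above 0). In limma 0 passed, and 1 of 33 had an unadjusted p under 0.05 in each comparison, against 14.4% of all genes between diabetic and control pools, 10.2% between NTD embryos and control pools and 3.05% between NTD embryos and diabetic pools. Cox15, which makes the heme of complex IV, read 6.93, 6.76, 7.0 and 7.09 in control pools and 7.23, 7.17, 7.26 and 6.97 in diabetic pools, a difference of 0.21 ± 0.09 (limma adjusted p = 0.306). Ecsit, an assembly factor of complex I, read 9.08, 9.03, 8.99 and 9.02 in control pools and 9.14, 9.20, 9.21 and 9.11 in diabetic pools. All diabetic pools lay above all control pools in Ecsit, with a difference of 0.14 ± 0.06 (adjusted p = 0.346). They did so in 3 of 33 assembly factors, and 9.34% of all genes did not overlap in this comparison, either direction.

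Of 11 measured genes of the tricarboxylic acid cycle and pyruvate entry, 0 passed in limma in any comparison, and 0 had an unadjusted p under 0.05. Dld, the dehydrogenase subunit that pyruvate and oxoglutarate dehydrogenase share, read 10.27, 10.37, 10.14 and 10.43 in control pools and 9.87, 9.91, 9.99 and 10.50 in diabetic pools. Diabetic pools 1, 2 and 3 were below all control pools and diabetic pool 4 above them, as in Ndufb9. The difference was -0.24 ± 0.13 (limma adjusted p = 0.441), and without diabetic pool 4 it was -0.38 (adjusted p = 0.0444). For ND4L the difference was -0.46 ± 0.31 (adjusted p = 0.555), and without diabetic pool 4 it was -0.82 (adjusted p = 0.0497). Each was the smallest limma adjusted p for its gene among 19 alternatives, and each left out the diabetic pool that went against the difference. With each sample left out in turn, 58 to 174 of all genes were called. Mdh2, mitochondrial malate dehydrogenase, differed by 0.13 ± 0.07 (adjusted p = 0.461). Cox8b, a muscle isoform, differed by 0.07 ± 0.08 between diabetic and control pools and was detected on 9 of 12 arrays.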
